A study of Mus musculus with 12 samples.

Results

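Collagens, laminins and integrins were examined in ribosome-associated and total RNA of cultured dorsal root ganglion (DRG) neurons. Members were all rows of the deposited gene tables whose symbol begins as a collagen chain (Col, a number, a, a number), a laminin chain (Lama, Lamb or Lamc with a number) or an integrin subunit (Itga or Itgb). This gave 63 rows of 14177 genes. They comprised 31 collagen genes, 10 laminin genes and 19 integrin genes. A further 3 rows, Col4a3bp, Itgb1bp1 and Itgb3bp, matched by spelling only. They encode a lipid transfer protein and proteins named for binding an integrin, and were left out of the class counts. The neurons came from adult male mice homozygous for Rpl22HA, a ribosomal protein gene that gains a hemagglutinin (HA) tag where Cre recombinase has acted. Cre was driven by Runx3, a transcription factor gene of proprioceptive neurons, and the groups were Rpl22HA/HA Runx3-Cre+ and their Rpl22HA/HA Cre- counterparts. Neurons of all ganglia were grown for 24 h on polylysine and laminin, and RNA came from an HA immunoprecipitate (pull-down) or, as the input, from 10% of the starting lysate, with 3 libraries in each of the 4 groups. Every library pooled cells of 5 mice, aged 3 to 6 months by the labels. Nothing states that the libraries came from separate cultures, so that p-values measure only the spread between these libraries. The coating was purified laminin protein, and the medium held serum.

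Collagens are chains that wind into triple helices. Fibrillar collagens such as types I and V form the fibres of connective tissue, and types IV, XV and XVIII belong to basement membranes, the thin sheets around blood vessels and around Schwann cells. Laminins are heterotrimers of an alpha, a beta and a gamma chain and form the second network of the basement membrane. Integrins are receptors made of an alpha and a beta subunit. The alpha 3, 6 and 7 subunits pair with beta 1 to bind laminin, alpha 1, 2, 10 and 11 pair with beta 1 to bind collagen, and alpha 5 and alpha V bind the RGD tripeptide of fibronectin and vitronectin. In sensory neurons, laminin and its integrins are known for their role in axon growth.

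Counts on the listed genes ranged from 8886308 to 18633365 per library. Across the genes tested, the input libraries of a label correlated at r = 0.916 to 0.976 on the log2 scale, the Cre- pull-downs at 0.937 to 0.968, and the Cre+ pull-downs at 0.695 to 0.839. The driver gene Runx3 was at 20.8, 36.0 and 51.4 normalized CPM (counts scaled to 1000000 per library) in the pull-downs labelled Cre- and at 4.70, 1.90 and 2.88 in their inputs. In the pull-downs labelled Cre+ it was at 22.8, 2.07 and 11.1, against 4.28, 2.39 and 5.55 in the inputs. Thus Runx3 stood above every input in each Cre- pull-down, where no tag is expected, and in 2 of 3 Cre+ pull-downs. The pull-down columns of the table that the labels assign to Cre+ are also named, but for punctuation, just as the Cre- pull-down samples are titled. Whether the labels were exchanged was not tested, and every value below, and the sign of every difference, rests on the labels as given. The groups are therefore called by their labels. Of the 10 pan-neuronal markers, all were listed under both labels. Under Cre- they summed to 50042, 57732 and 57774 CPM in the pull-downs against 30256, 25507 and 25451 in the inputs, so that every pull-down was above every input. Most of the sum came from Nefl, Nefm and Snap25, and Rbfox3 was below every input in each pull-down. Under Cre+ they summed to 22505, 23166 and 25139 CPM in the pull-downs against 29417, 23191 and 22123 in the inputs, with overlap. Tubb3, Uchl1 and Stmn2 were called depleted there, as were 2.19% of all genes tested. The part of these shifts in the Cre- values and in the differences between the labels was not tested. Of 7 proprioceptor markers, Pvalb was not in the Cre+ table. The other 6 summed there to 882, 683 and 797 CPM in the pull-downs against 305, 418 and 378 in the inputs. Most of the pull-down sums came from Ntrk3 and Heg1, which separated upwards, while Runx3, Etv1, Whrn and Spp1 overlapped between the fractions. Under Cre- all 7 summed to 1450, 1686 and 1781 CPM in the pull-downs against 394, 424 and 423 in the inputs. Of them, 1 of 6 was called enriched under Cre+ (Ntrk3) and 6 of 7 under Cre-, where 4.72% and 6.01% of all genes tested were called. Spp1 had a negative log2 fold change under Cre+. The first pull-down under each label stood apart in the matrix genes, as described below.

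Promoter sequences of 5 members with a call are shown, to give the DNA next to the genes described. Each is the 250 bases before a start site in a RefSeq table (GRCm38.p6), which matched 46 of the 63 members, and holds no exon annotated by GENCODE. The start sites used for Itgav and Col5a3 lie inside the gene spans given below, so that the Itgav window is within the gene and the Col5a3 window overlaps its end. Itga3 had 2 windows in the table and is not shown. One holds 34 annotated exon bases, and the other precedes a start site inside the gene. Capitals mark the GC box (GGGCGG), the CCAAT box (CCAAT) and the TATA box (TATAAA), each searched on both strands, so that CCGCCC is a GC box on the other strand. These motifs do not overlap each other here.
Itga2 (chr13:114932101-114932350, minus strand): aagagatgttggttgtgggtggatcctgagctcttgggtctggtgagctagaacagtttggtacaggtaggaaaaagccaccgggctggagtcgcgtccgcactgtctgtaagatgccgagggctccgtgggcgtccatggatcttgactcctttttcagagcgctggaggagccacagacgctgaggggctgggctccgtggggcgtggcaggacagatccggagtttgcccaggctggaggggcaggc
Itgav (chr2:83724147-83724396, plus strand): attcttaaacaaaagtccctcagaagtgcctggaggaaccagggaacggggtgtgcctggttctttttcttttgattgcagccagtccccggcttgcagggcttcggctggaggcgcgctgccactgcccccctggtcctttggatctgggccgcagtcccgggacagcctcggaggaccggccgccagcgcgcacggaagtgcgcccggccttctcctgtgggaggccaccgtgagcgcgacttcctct
Itgam (chr7:128062390-128062639, plus strand): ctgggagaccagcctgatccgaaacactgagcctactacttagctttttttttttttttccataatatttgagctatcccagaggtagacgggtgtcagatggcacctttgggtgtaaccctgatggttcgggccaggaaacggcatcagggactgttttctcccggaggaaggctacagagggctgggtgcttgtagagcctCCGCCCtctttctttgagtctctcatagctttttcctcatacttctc
Itgb1 (chr8:128685404-128685653, plus strand): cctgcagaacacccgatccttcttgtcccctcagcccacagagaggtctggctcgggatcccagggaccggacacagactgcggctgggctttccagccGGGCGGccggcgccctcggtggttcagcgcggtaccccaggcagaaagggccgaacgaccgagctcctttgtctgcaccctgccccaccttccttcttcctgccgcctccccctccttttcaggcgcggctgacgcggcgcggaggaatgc
Col5a3 (chr9:20815068-20815317, minus strand): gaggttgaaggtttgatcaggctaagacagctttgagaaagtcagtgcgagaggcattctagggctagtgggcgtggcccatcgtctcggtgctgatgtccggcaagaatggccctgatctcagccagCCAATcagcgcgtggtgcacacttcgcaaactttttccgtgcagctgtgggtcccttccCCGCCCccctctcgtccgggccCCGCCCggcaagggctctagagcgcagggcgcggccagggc
No motif lay in the Itga2 and Itgav windows. Itgam and Itgb1 had 1 GC box each, and Col5a3 had 2 GC boxes and 1 CCAAT box. Of 32851 promoter windows of the same length, 32.7% held a GC box, 33.8% a CCAAT box and 12.4% a TATA box. On this build, the gene Itgav is at chr2:83722303-83806917, Itga2 at chr13:114833081-114932100, Itgam at chr7:128062640-128118491, Itgb1 at chr8:128685654-128733579 and Col5a3 at chr9:20770050-20815117. Col4a1 and Col4a2, the chains of the common type IV collagen, lie head to head on chromosome 8. Their start sites, 11312826 and 11312805, enclose 22 bases that belong to both first exons and hold 1 GC box. They are shown because both genes are described side by side.
Col4a1 and Col4a2 (chr8:11312805-11312826, plus strand): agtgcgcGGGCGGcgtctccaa

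The table labelled Cre+ listed 17 of the 41 matrix genes (collagens and laminins) and 12 of the 19 integrin genes, and the Cre- table listed all 60. Each gene in the Cre+ table has 5 or more counts in all of its libraries, so that absence from it is no measure of a level. A mean FPKM above 1 was required for testing, which left 14 matrix and 10 integrin genes under Cre+ and 13 and 15 under Cre-. Splitting the mean FPKM by the CPM of each fraction, 2 members passed only through the pull-downs under Cre+ (Col5a3 and Itga9) and 2 under Cre- (Itga2 and Itga4), and Col15a1 passed only through the inputs under Cre-. A gene that passed this way had to differ between the fractions. Per kilobase of exon, Itgb1 was the most abundant member, at 87.1 ± 23.7 CPM per kb (SD, n = 3) in the Cre- inputs and 87.3 ± 23.1 in the Cre+ inputs. Itga3 (13.4 ± 4.82), Itga5 (12.0 ± 0.955) and Itga7 (7.21 ± 3.91) followed among the integrin genes in the Cre- inputs, where Itga3 and Itga5 did not differ beyond their spread and Itga7 was lower than Itga5 by more than the SD of either. Among the matrix genes, Lamc1 (9.08 ± 3.56), Col8a1 (9.02 ± 3.04) and Col4a2 (8.48 ± 1.57) were highest per kb there and likewise did not differ beyond their spread. In bulk RNA, fewer cells of a type and less RNA per cell cannot be told apart, which holds for all levels given here.

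Under the Cre+ label, 2 of the 14 tested matrix genes rose in the pull-down and none fell (FDR below 0.1 and at least a 2-fold change, edgeR quasi-likelihood test). Among all 8947 genes tested, 4.72% were called enriched and 2.19% depleted, or 422 and 196 genes. With scaling by library size it was 192 and 699, and the median log2 fold change of all genes moved from 0.08 to -0.36. In edgeR a further 2 matrix genes had an unadjusted p below 0.05, and neither DESeq2 nor the exact test called a matrix gene depleted. Col12a1 (chr9:79598987-79721141) encodes a collagen that attaches to the surface of type I fibrils. It measured 126, 379.9 and 239.8 CPM in the pull-downs against 10.3, 45.7 and 34.7 in the inputs. Every pull-down was above every input, by a log2 fold change of 3.04 ± 0.60 (SE), FDR 0.0433. Without the first or the third input the FDR was 0.155 and 0.145. In those fits only 7 and 4 genes of the whole table were called. Col5a3, a minor fibrillar chain, measured 76.5, 5.49 and 6.70 CPM in the pull-downs against 0.873, 1.48 and 1.67 in the inputs. The first pull-down was far above the other two, and all 3 were above the inputs (log2 fold change 4.45 ± 1.15 (SE), FDR 0.0757). Its call was lost without any one of the inputs (FDR 0.335, 0.216 and 0.222). The call was kept in the fit without the first pull-down, and the log2 fold change was 2.21 to 4.95 over the alternatives run. Without that library, however, the mean FPKM of Col5a3 would be 0.482, below the filter, so that it would not have been tested. With no filter its FDR was 0.0758.

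All 14 tested matrix genes had a positive log2 fold change under Cre+ (13 with scaling by library size or without input 1, and 9 without pull-down 1), with a median of 1.17, against 0.08 and 53.0% positive over all genes tested. With the 3 listed genes below the filter included, the median was 1.37. In 6 of the 14 every pull-down was above every input, which held for 15.5% of all genes, and no matrix gene had every pull-down below every input (17.9% of all genes). The 6 were Col12a1, Col5a3, Col4a2, Col18a1, Lama4 and Lamc1, where the lowest pull-down and the highest input of Col4a2 were nearly tied. Col5a3 passed the filter only through the pull-downs, so that its direction in these counts was fixed by the filter. Of the basement membrane and network collagens, 5 were tested and none passed in edgeR, with 2 at an unadjusted p below 0.05. DESeq2 called those 2, Col4a2 and Col18a1. Col4a2 was at 233, 83.4 and 47.9 CPM in the pull-downs against 19.6, 47.9 and 41.0 in the inputs (log2 fold change 1.75 ± 0.62 (SE), FDR 0.136). Its partner chain Col4a1 was at 94.0, 27.1 and 35.2 CPM in the pull-downs against 20.5, 37.4 and 30.8 in the inputs, and the groups overlapped (0.82 ± 0.58 (SE), FDR 0.419). Col18a1, the source of endostatin, was at 86.7, 17.9 and 29.9 CPM in the pull-downs against 12.7, 11.4 and 10.5 in the inputs (1.96 ± 0.68 (SE), FDR 0.132). For Col4a2, Col18a1 and Col4a1 alike, the first pull-down was the highest library. Without it the log2 fold change was 1.09 for Col18a1 and 0.11 for Col4a1.

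The 4 tested laminin chains did not pass under Cre+ in edgeR or DESeq2, with none at an unadjusted p below 0.05 in edgeR and 2 in DESeq2, and had a median log2 fold change of 1.12. Lamc1, the gamma chain of most laminins, measured 221, 142 and 147 CPM in the pull-downs against 24.4, 126 and 84.2 in the inputs (1.12 ± 0.53 (SE), FDR 0.236). Lama4, the alpha chain of vessel walls and Schwann cells, measured 31.4, 39.3 and 24.8 CPM in the pull-downs against 7.68, 17.0 and 19.4 in the inputs (1.11 ± 0.59 (SE), FDR 0.288). In both, every pull-down was above every input, although input 1 of Lamc1 stood well below the other inputs. Lamb1 overlapped between the fractions (0.58 ± 0.70 (SE), FDR 0.643), and so did Lama2. The type I chains also overlapped. Col1a1 was at 44.9, 6.71 and 21.9 CPM in the pull-downs against 14.1, 25.1 and 9.63 in the inputs (0.59 ± 0.76 (SE), FDR 0.669), and without the first pull-down its log2 fold change turned to -0.15. For Lamb1 it turned to -0.07. Col1a2 had a log2 fold change of 0.63 ± 0.78 (SE), FDR 0.659, which was 0.02 without the first pull-down.

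**Figure D1:**
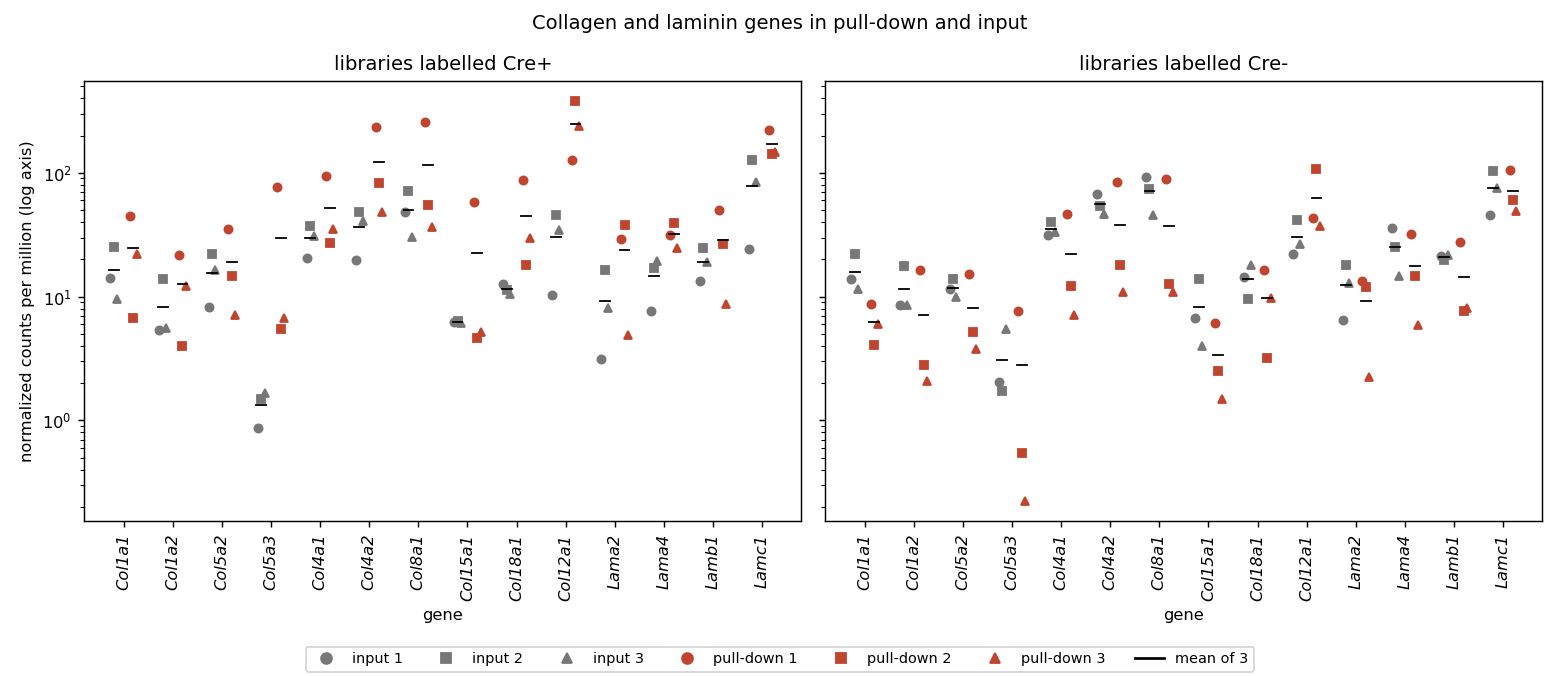
Normalized CPM (log axis) of the 14 collagen and laminin genes tested under Cre+, in each of the 3 inputs (grey) and 3 pull-downs (red) of both labels, with the mean as a line; symbols give the library number. Under Cre+ the first pull-down (circle) is the highest in 11 of the 14 genes, and under Cre- pull-downs 2 and 3 lie below the inputs for most genes.

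Under the Cre- label, 1 of the 13 tested matrix genes fell in the pull-down and none rose (5.83% and 6.01% of 11526 genes were called depleted and enriched, or 672 and 693, and 1238 and 429 with scaling by library size), and 2 had an unadjusted p below 0.05. The gene that fell was Col1a1 (chr11:94936224-94953042), the main chain of type I collagen. It measured 8.70, 4.06 and 5.96 CPM in the pull-downs against 13.9, 22.0 and 11.5 in the inputs. Every pull-down was below every input, by a log2 fold change of -1.34 ± 0.39 (SE), FDR 0.0347. Without input 2 or pull-down 2 the FDR was 0.169 and 0.128, and in one fit of 12 libraries it was 0.308. It was the only matrix gene of 13 that separated downwards, and none separated upwards, against 18.6% and 18.2% of all genes. Its partner chain Col1a2 overlapped, at 16.5, 2.78 and 2.08 CPM in the pull-downs against 8.62, 17.6 and 8.49 in the inputs (-0.69 ± 0.73 (SE), FDR 0.565). In all, 12 of the 13 had a negative log2 fold change, with a median of -0.53 over the 13 and of -0.04 over all genes tested. The exception was Col12a1, at 43.3, 107 and 37.0 CPM in the pull-downs against 22.0, 41.9 and 26.7 in the inputs (1.05 ± 0.41 (SE), FDR 0.115). Its second pull-down was well above the others, and it was called by DESeq2 (FDR 0.0217) and by the edgeR exact test (FDR 0.0520). The mostly negative signs held for the genes past the filter. With no filter, 18 of the 41 matrix genes were positive, with a median of -0.46. The laminin median was 0.26 over all 10 listed chains and -0.48 over the 4 tested.

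Type IV collagen showed how the Cre- pull-downs differed among themselves. Col4a2 measured 84.7, 18.2 and 10.9 CPM in the pull-downs against 67.3, 54.4 and 46.7 in the inputs. Col4a1 measured 46.6, 12.1 and 7.07 CPM in the pull-downs against 31.4, 40.0 and 33.3 in the inputs. In both genes the first pull-down was the highest of all 6 libraries and the other two were the lowest. Col8a1, a network collagen of vessel walls, had the same order of pull-downs, at 88.9, 12.6 and 10.9 CPM in the pull-downs against 92.7, 74.0 and 45.4 in the inputs. None of the 3 passed the test without a block (FDR 0.685, 0.528 and 0.555). With the replicate number as a block, Col4a2 and Col8a1 were called depleted. Without the first pull-down, 9 matrix genes were called depleted in place of 1, and the median of the 13 was -1.38, against -0.31 without pull-down 2 and -0.23 without pull-down 3. The 9 were Col1a1, Col1a2, Col4a1, Col4a2, Col5a2, Col8a1, Col15a1, Lama4 and Lamb1. The whole table had 1060 genes depleted in that fit in place of 672.

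The first pull-down stood apart under both labels. Against the mean of its 3 inputs (log2 ratio with 0.5 CPM added), the median over the matrix genes was 1.63 in pull-down 1 labelled Cre+, 0.54 in pull-down 2 and 0.41 in pull-down 3. Under Cre- it was 0.37, -1.49 and -2.01. Pull-down 1 was the highest of the 3 for 11 of 14 matrix genes under Cre+ and for 12 of 13 under Cre-, against 38.7% and 38.0% of all genes tested. For the integrin genes the medians were 1.36, 0.07 and 0.29 under Cre+ and 0.43, 0.39 and 0.34 under Cre-. Their first pull-down was the highest for 6 of 10 and 9 of 15, and the difference from the matrix genes was not tested. Markers of several other cell types moved with the first pull-down under 1 or both labels, those of endothelial cells under both. Of 9 such markers, 7 were in the Cre+ table, and their sum was 821, 132 and 203 CPM in the pull-downs against 112, 105 and 122 in the inputs. Under Cre-, the sum of 8 markers was 200.4, 29.2 and 33.9 CPM in the pull-downs against 148, 103 and 112 in the inputs. Pecam1 alone was at 255, 20.2 and 17.8 CPM in the Cre+ pull-downs. Of the endothelial markers, Cldn5 was in neither table, and none of those listed was at 0. The sum of pericyte and smooth muscle markers was 76.7, 20.6 and 20.4 CPM in the pull-downs against 91.0, 74.9 and 79.0 in the inputs, for 7 of 8 markers. For the 5 of 10 fibroblast markers listed under Cre- it was 69.0, 22.9 and 17.8 CPM in the pull-downs against 74.8, 61.3 and 66.7 in the inputs. Under Cre+ the 4 pericyte markers listed summed to 93.3, 51.6 and 83.2 CPM in the pull-downs against 57.0, 67.7 and 76.8 in the inputs. The 2 fibroblast markers listed there summed to 9.88, 63.8 and 32.7 CPM in the pull-downs against 76.0, 53.7 and 46.3 in the inputs, with pull-down 1 the lowest library. The 2 macrophage markers listed under Cre+ summed to 112, 16.8 and 4.85 CPM in the pull-downs against 68.2, 25.8 and 31.2 in the inputs. Of 6 epithelial markers, the 2 listed under Cre- summed to 150.3, 57.4 and 33.0 CPM in the pull-downs against 188, 209 and 138 in the inputs, and the 1 listed under Cre+ was at 70.3, 199 and 146 CPM in the pull-downs against 103, 202 and 147 in the inputs. The 7 Schwann and satellite glial markers listed under Cre+ summed to 1920, 1957 and 2725 CPM in the pull-downs against 4022, 2969 and 2918 in the inputs. The 11 listed under Cre- summed to 2049, 1656 and 1990 CPM in the pull-downs against 4672, 3293 and 3331 in the inputs. Pmp22 made up most of this sum, and S100b was above every input in each Cre- pull-down. The part of these cell types in the matrix values was not tested. Without pull-down 1 the median of the 14 matrix genes under Cre+ was 0.51, and Col12a1 was still called.

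**Figure D2:**
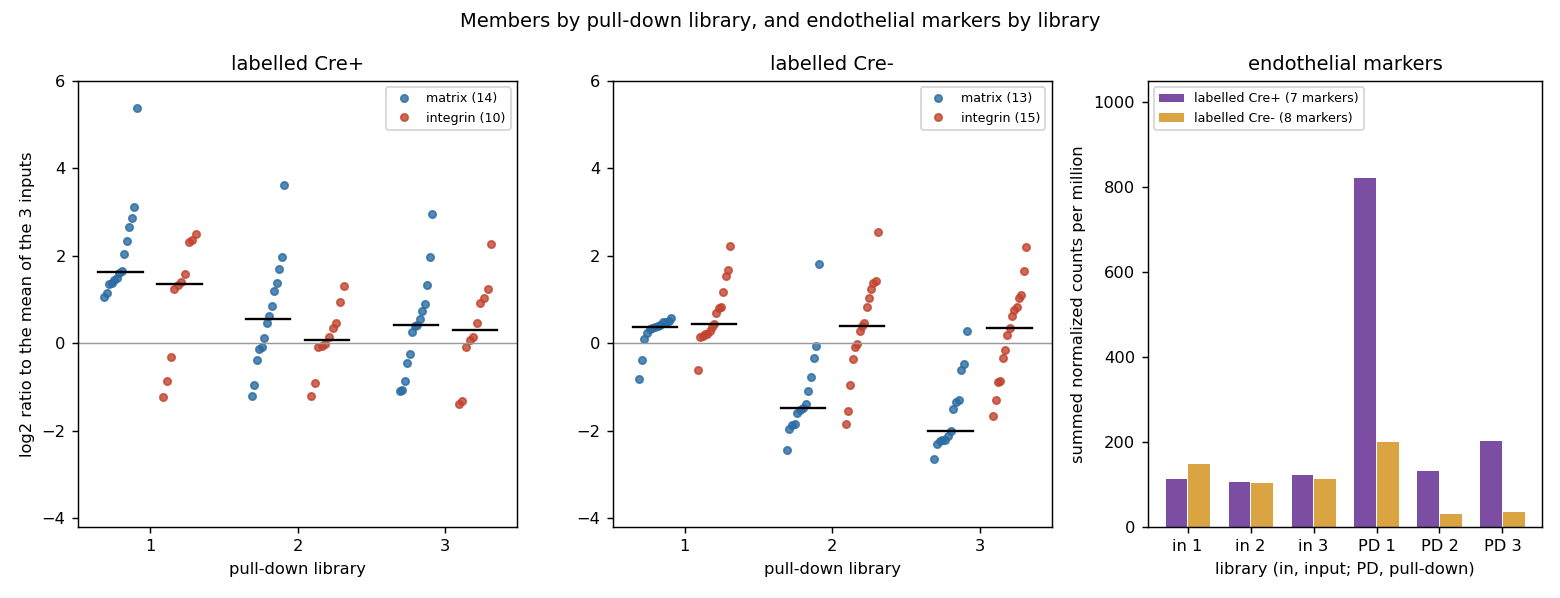
Left and centre, log2 ratio of each pull-down library to the mean of its 3 inputs for every tested matrix gene (blue) and integrin gene (red), with the median as a line; right, summed normalized CPM of the listed endothelial markers in each library. The matrix medians in pull-down 1 are 1.63 (Cre+) and 0.37 (Cre-), above those of pull-downs 2 and 3, and the endothelial sum in pull-down 1 is 821 CPM under Cre+ and 200.4 CPM under Cre-.

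Under the Cre- label, 4 of the 15 tested integrin genes rose in the pull-down and 1 fell, where 6.01% and 5.83% of all genes were called. Of the 15, 7 had an unadjusted p below 0.05. Their median log2 fold change was 0.29, but 0.86 without input 3 and 0.06 with scaling by library size. Every pull-down was above every input in 6 of the 15 and below in none, against 18.2% and 18.6% of all genes. Itga2 and Itga4 are among these 6, and Itga2 is among the 4 that rose. Both passed the filter only through the pull-downs, so that their direction was fixed by the filter. Itga6 (chr2:71786886-71858427), the laminin-binding alpha 6 subunit, measured 72.2, 60.6 and 71.0 CPM in the pull-downs against 23.0, 22.5 and 21.3 in the inputs. The pull-downs were close to each other and about as far from the inputs in each library, with a log2 fold change of 1.61 ± 0.20 (SE), FDR 2.8e-04. Itga2, the collagen-binding alpha 2 subunit, measured 16.0, 20.2 and 15.8 CPM in the pull-downs against 1.37, 2.81 and 4.93 in the inputs, again without overlap (2.50 ± 0.45 (SE), FDR 0.00259). It passed the filter only through the pull-downs, with an FDR of 0.00329 with no filter. Both kept their call with each library left out, with FDR of at most 0.00315 and 0.0208. Itgav, the alpha V subunit, measured 66.9, 29.8 and 40.5 CPM in the pull-downs against 14.8, 29.2 and 24.0 in the inputs. Its lowest pull-down barely exceeded its highest input (1.01 ± 0.33 (SE), FDR 0.0547), and the call was lost without input 1, input 3 or pull-down 1 (FDR 0.170, 0.124 and 0.142), with scaling by library size (FDR 0.125), with the replicate number as a block (FDR 0.102) and in one fit of 12 libraries (FDR 0.5005).

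Itgam, the alpha M subunit of a leukocyte integrin, rose as well, from 5.59, 6.27 and 7.50 CPM in the inputs to 15.2, 17.5 and 14.4 in the pull-downs (1.28 ± 0.32 (SE), FDR 0.0157). It kept its call with each library left out. In the GENCODE annotation 68.7% of its exon bases are shared with the gene Gm49368, and the counting was not stated to use strand, so its counts are uncertain. Its beta partner Itgb2 overlapped between the fractions, at 3.07, 2.24 and 2.98 CPM in the pull-downs against 1.67, 1.98 and 3.11 in the inputs (0.29 ± 0.58 (SE), FDR 0.780). The other 5 leukocyte integrin genes of the list were in neither table. Of 11 macrophage markers 8 were listed under Cre-, and their sum was 79.6, 63.1 and 56.9 CPM in the pull-downs against 129, 61.5 and 63.4 in the inputs. Cd68 made up a large part of it and was lower in the mean of the pull-downs, whereas 4 of the 5 markers tested had a positive log2 fold change and Lyz2 separated upwards, as Itgam did. Their part in the Itgam value was not tested.

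The laminin-binding alpha subunits did not move together under Cre-. Itga3 (chr11:95044475-95076844) fell, at 49.9, 25.7 and 31.0 CPM in the pull-downs against 46.3, 99.7 and 84.4 in the inputs. The first pull-down overlapped the lowest input (-1.11 ± 0.31 (SE), FDR 0.0318), and without input 2 or pull-down 2 the FDR was 0.130 and 0.124, and in one fit of 12 libraries 0.127. Itga7 was at 68.0, 80.2 and 119 CPM in the pull-downs against 27.3, 57.2 and 90.6 in the inputs and overlapped (0.61 ± 0.39 (SE), FDR 0.333). Itgb1, the partner of all 3, was at 412, 334 and 406 CPM in the pull-downs against 278, 324 and 464 in the inputs (0.11 ± 0.19 (SE), FDR 0.743), a log2 fold change that turned to -0.12 with scaling by library size. Itga4 separated upwards and had an FDR of 0.0618, but its log2 fold change of 0.88 was under the 2-fold limit. It had passed the filter only through the pull-downs, and with no filter its FDR was 0.0753. Itgb5, which pairs with alpha V, also separated, at 8.76, 13.0 and 9.23 CPM in the pull-downs against 3.43, 7.02 and 5.15 in the inputs (0.99 ± 0.40 (SE), FDR 0.116). Itga5, the fibronectin receptor subunit, had a log2 fold change of -0.47 ± 0.28 (SE), FDR 0.287. Those of Itga9 and Itgb8 were 0.17 and 0.21 and turned negative with scaling by library size.

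**Figure D3:**
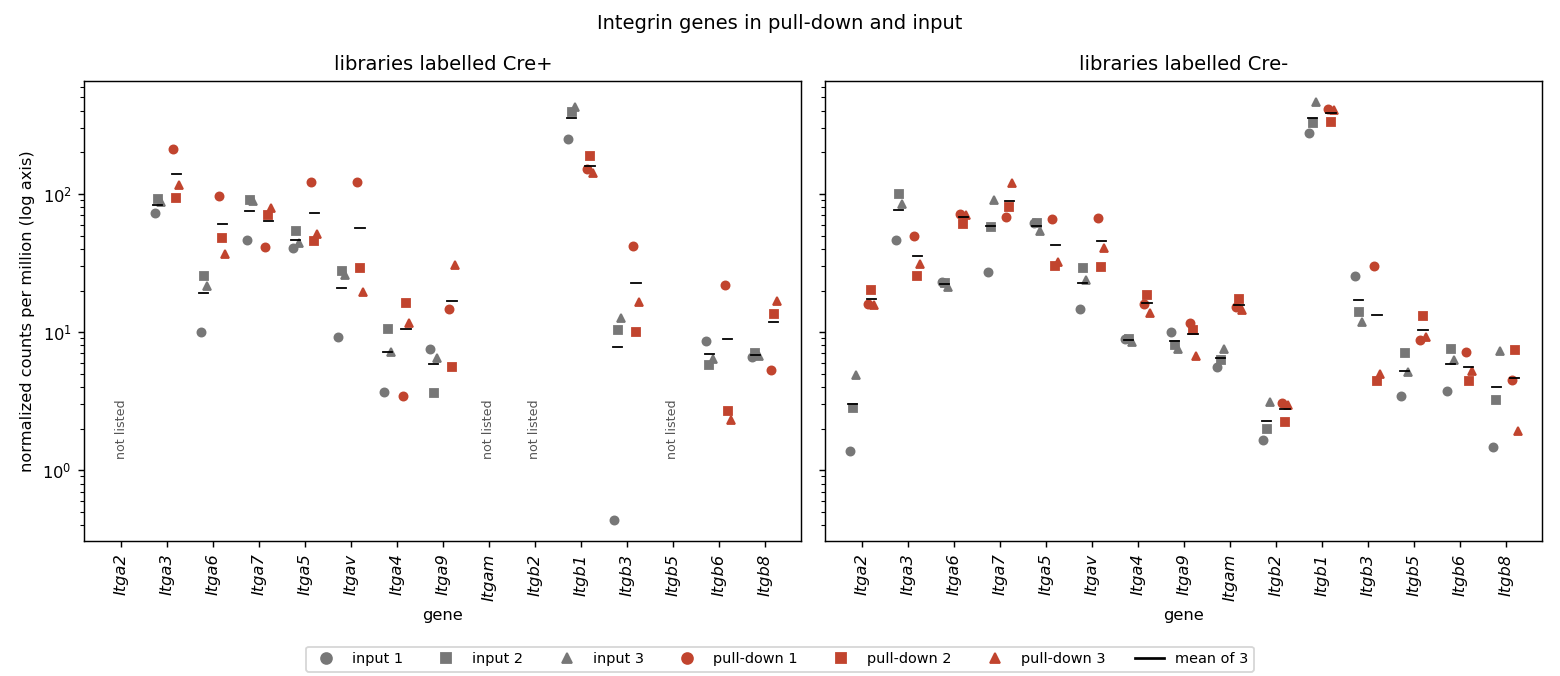
Normalized CPM (log axis) of the 15 integrin genes tested under Cre-, in each of the 3 inputs (grey) and 3 pull-downs (red) of both labels, with the mean as a line; genes that the Cre+ table does not hold are marked. Itga2, Itga6 and Itgam separate fully under Cre-, and Itgb1 is lower in all 3 pull-downs than in all 3 inputs under Cre+.

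Under the Cre+ label, no integrin gene of 10 rose and 1 fell, where 4.72% and 2.19% of all genes were called. An unadjusted p below 0.05 was reached by 2 of the 10, and DESeq2 and the edgeR exact test each called 1 enriched. The gene that fell was Itgb1, the most abundant member. It measured 151, 188 and 143 CPM in the pull-downs against 249, 392 and 427 in the inputs. Every pull-down was below every input, by a log2 fold change of -1.15 ± 0.30 (SE), FDR 0.0757. The call was lost without any one input (FDR 0.155, 0.236 and 0.269) or without pull-down 3 (FDR 0.125). Its log2 fold change was negative under every alternative run. Itga6 measured 97.5, 47.8 and 36.8 CPM in the pull-downs against 9.95, 25.7 and 21.6 in the inputs. It separated upwards with a log2 fold change of 1.67 ± 0.59 (SE), FDR 0.135, and it was the gene that DESeq2 (FDR 0.0238) and the exact test (FDR 0.0827) called. Itga3 also separated upwards, at 213, 93.2 and 115 CPM in the pull-downs against 72.4, 91.9 and 87.4 in the inputs (0.74 ± 0.38 (SE), FDR 0.273), with its second pull-down just above its highest input. Itga7 overlapped, at 41.4, 71.0 and 79.4 CPM in the pull-downs against 46.7, 89.8 and 89.7 in the inputs (-0.24 ± 0.44 (SE), FDR 0.777). The remaining values overlapped. Itgav was at 121, 28.9 and 19.6 CPM in the pull-downs against 9.25, 27.7 and 26.0 in the inputs (1.43 ± 0.76 (SE), FDR 0.288), where the first pull-down alone was high. Itga5 had a log2 fold change of 0.66 ± 0.48 (SE), FDR 0.428, Itga9 of 1.52 ± 0.77 (SE), FDR 0.261 and Itgb8 of 0.81 ± 0.66 (SE), FDR 0.481. Of these, Itga9 passed the filter only through the pull-downs, so that its direction was fixed by the filter.

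The difference of the enrichments between the labels was tested for genes in both tables, with the 12 libraries in one model. Of 8954 genes, 2.33% had a higher enrichment under Cre+ and 2.03% a higher one under Cre-, or 209 and 182 genes, and 72 and 275 with scaling by library size. None of 14 matrix genes passed, with 6 at an unadjusted p below 0.05 and 4 called by DESeq2 (Col4a2, Col12a1, Col15a1 and Col18a1). Of 11 integrin genes 2 passed, in opposite directions. Itga3 had a higher enrichment under Cre+, with a difference (Cre+ minus Cre-) of the log2 fold changes of 1.88 ± 0.53 (SE), FDR 0.0896. Itgb1 had a lower one, with a difference of -1.22 ± 0.35 (SE), FDR 0.0968. Both lay close to the threshold. The Itga3 call was lost without any one of 8 of the 12 libraries, namely every input and Cre- pull-downs 2 and 3, with a highest FDR of 0.238. The Itgb1 call was lost without Cre+ input 2 or 3, any Cre- input or any Cre- pull-down (highest FDR 0.239). With scaling by library size the Itga3 call was also lost (FDR 0.129) and the Itgb1 call was not. Neither changed sign. Without the first pull-down of both labels, an alternative chosen after the data were seen, both were called (FDR 0.0287 and 0.0814). For Itga6, enriched under Cre- and separated under Cre+, the difference was 0.09 ± 0.58 (SE), FDR 0.952, with a direction that turned to -0.18 with scaling by library size.

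For all 14 matrix genes the fitted difference was positive, with a median of 1.90 against 0.13 and 54.8% positive over all genes. The 7 endothelial markers listed were all positive too, with a median difference of 2.35, and 1 was called (Tek), where 2.33% of all genes were. Of 10 pan-neuronal markers 9 were negative (median -0.79), with 3 called lower (Uchl1, Snap25 and Stmn2) and 1 higher (Rbfox3). Of 6 proprioceptor markers 4 were negative (median -1.79), and Etv1 and Spp1 were called lower, where 2.03% of all genes were. Of 7 glial markers 5 were positive (median 0.84), and S100b was called lower. The pericyte, macrophage and epithelial markers tested were positive, and 1 of 2 fibroblast markers was. The part of these markers in the matrix differences was not tested. The 11 integrin genes had a median of 0.45, which ranged from 0.11 (both first pull-downs left out) to 0.75 (without Cre+ pull-down 2) and was 0.13 without Cre+ pull-down 1 and 0.14 with scaling by library size. Col4a2 differed by 2.33 ± 0.97 (SE), FDR 0.213, Col18a1 by 2.48 ± 0.90 (SE), FDR 0.162 and Col12a1 by 2.03 ± 0.78 (SE), FDR 0.183. Lama4 differed by 1.66 ± 0.83 (SE), FDR 0.288 and Lamc1 by 1.22 ± 0.69 (SE), FDR 0.348. Without the first pull-down of both labels the matrix median was 2.09, and 6 matrix genes were called (median 1.10 without the Cre+ one alone, and 2.56 without the Cre- one alone), all with a higher enrichment under Cre+. They were Col4a1, Col4a2, Col5a3, Col8a1, Col18a1 and Lama4, with FDR of 0.0427, 0.0164 and 0.0141 for the first 3. Col5a3 had passed the filter only through the Cre+ pull-downs, and without the first of them its mean FPKM under Cre+ would be 0.482. Its call in this fit therefore concerns a gene that the filter would have removed. Over the whole table, the fit without both first pull-downs called 689 genes higher and 592 lower, in place of 209 and 182.

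**Figure D4:**
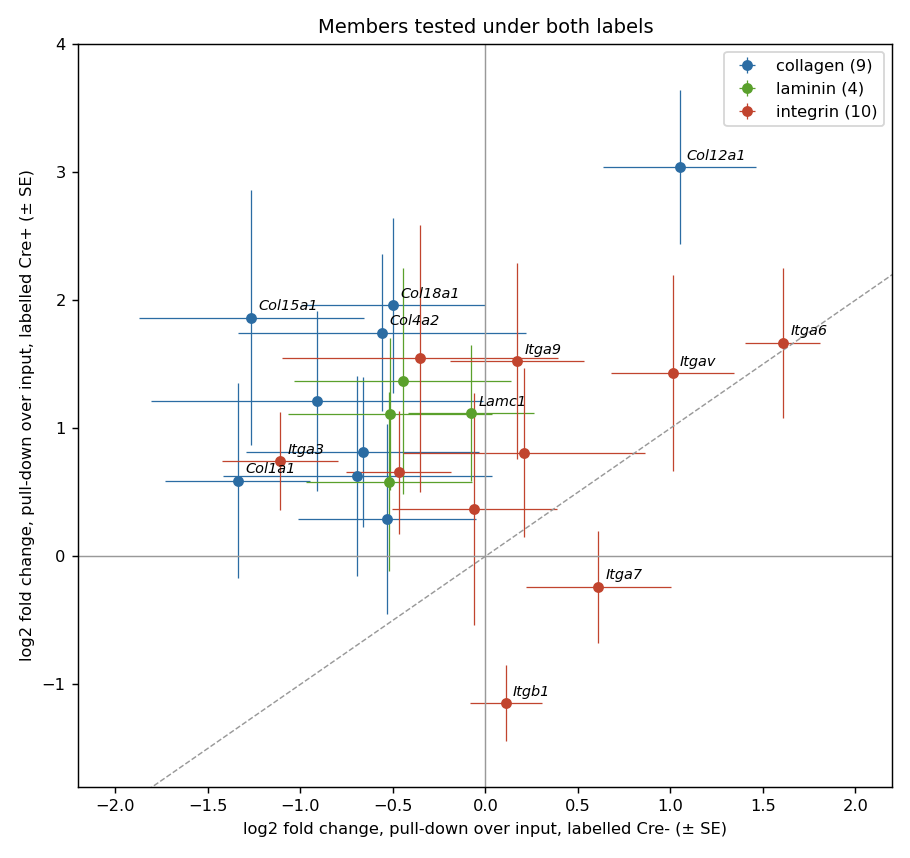
Log2 fold change of pull-down over input under Cre+ (vertical) against Cre- (horizontal) for the 23 members tested under both labels, with standard errors; the dashed line marks equal values. Collagens (blue) and laminins (green) lie above the line, at positive values under Cre+, while Itgb1 and Itga7 lie below it.

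The other members were low or were not in the Cre+ table. Under Cre-, 28 matrix and 4 integrin genes had a mean FPKM of 1 or less and were not tested. Col6a1 was in neither table. Col3a1, the fibrillar chain of soft connective tissue, was at 3.35, 1.15 and 0.0744 CPM in the pull-downs against 1.76, 1.24 and 4.55 in the inputs. Col5a1 was at 13.2, 0.948 and 2.68 CPM in the pull-downs against 2.55, 7.18 and 5.00 in the inputs. In both genes the fractions overlapped and the first pull-down was above the other two. Lama5 was at 8.87, 3.52 and 3.35 CPM in the pull-downs against 4.21, 0.743 and 3.11 in the inputs, Lamb2 at 4.30, 5.69 and 0 CPM in the pull-downs against 1.08, 3.30 and 1.29 in the inputs. The collagen-binding Itga1 was at 4.18, 3.05 and 1.64 CPM in the pull-downs against 0.294, 2.06 and 1.36 in the inputs. Itgb4, the hemidesmosome subunit that pairs with alpha 6, was at 1.62, 0 and 0.670 CPM in the pull-downs against 0.784, 0.991 and 0.303 in the inputs. None of these separated. Of the 4 type VI chains listed under Cre-, chosen for mention after their values were seen, 3 separated, Col6a3 upwards and Col6a2 and Col6a5 downwards. Among all genes tested under Cre-, 18.2% separated upwards and 18.6% downwards. Col6a5 was at 1.39, 2.30 and 0.819 CPM in the pull-downs against 7.25, 10.2 and 10.0 in the inputs, and Col6a3 at 7.92, 4.34 and 5.66 CPM in the pull-downs against 1.18, 2.89 and 3.34 in the inputs. Col6a2 was at 0.837, 0 and 0.0744 CPM in the pull-downs against 1.67, 2.39 and 1.36 in the inputs. With no filter, Col6a5 was called depleted (FDR 0.00590) and Col6a3 was not called (FDR 0.162). Of the 3 rows that matched by spelling, none was called.

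Of the adaptors and signalling proteins of integrins, 26 of 30 were tested under each label. Under Cre+ 5 rose and 1 fell, where 4.72% and 2.19% of all genes were called, and under Cre- 2 rose and 1 fell, where 6.01% and 5.83% were, with medians of 0.15 and -0.09. The talins activate integrins by binding the beta tail. Tln2 was at 304, 302 and 135 CPM in the pull-downs against 61.1, 87.6 and 73.4 in the inputs (1.74 ± 0.38 (SE), FDR 0.0540). Under Cre- it was at 245, 254 and 138 CPM in the pull-downs against 79.5, 83.7 and 84.1 in the inputs (1.36 ± 0.22 (SE), FDR 0.00140). Tns1, a tensin of focal adhesions, rose under both labels too, by 1.35 ± 0.31 (SE), FDR 0.0609 and 1.29 ± 0.15 (SE), FDR 1.9e-04. Tln1 rose under Cre+ (1.46 ± 0.29 (SE), FDR 0.0425) and was under the 2-fold limit under Cre- (0.77 ± 0.19 (SE), FDR 0.0174). Flna and Kank1 also rose under Cre+ (2.46 and 3.09), Rsu1 fell there (-2.40) and Lims2 fell under Cre- (-1.23). No gene of this list passed the test of the difference in edgeR, where 6 had an unadjusted p below 0.05, and DESeq2 called 3.

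Of 16 other matrix proteins, 11 were tested under Cre+ and 8 under Cre-. Under Cre+ 2 rose and none fell (4.72% and 2.19% of all genes), and under Cre- (6.01% and 5.83%) none was called by edgeR or DESeq2, with none at an unadjusted p below 0.05 in edgeR, while the exact test called Thbs1 enriched. Thbs1, thrombospondin 1, was at 544, 21.2 and 13.0 CPM in the pull-downs against 36.7, 40.1 and 32.1 in the inputs, so that pull-down 1 alone was high and the other pull-downs lay below every input. Under Cre+ it was at 6760, 26.0 and 33.6 CPM in the pull-downs against 19.3, 45.5 and 32.3 in the inputs, again high in pull-down 1 alone, and was called by the exact test but not by edgeR's quasi-likelihood test (FDR 0.140). The medians were 1.38 and -0.13. Hspg2, the basement membrane proteoglycan perlecan, was at 446, 127 and 91.1 CPM in the pull-downs against 29.9, 44.8 and 29.0 in the inputs (2.68 ± 0.59 (SE), FDR 0.0549). Under Cre- it was at 68.6, 27.8 and 20.5 CPM in the pull-downs against 26.8, 42.6 and 47.0 in the inputs (0.01 ± 0.42 (SE), FDR 0.992), and the difference passed (2.69 ± 0.79 (SE), FDR 0.0989). Fn1, fibronectin, was at 188, 79.5 and 21.6 CPM in the pull-downs against 6.29, 22.5 and 6.05 in the inputs (3.05 ± 0.85 (SE), FDR 0.0883). In both genes the first Cre+ pull-down was again the highest.

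All 10 other receptors for laminin and collagen were tested. None was called under Cre+ by edgeR or DESeq2, where 2 had an unadjusted p below 0.05 in edgeR and 3 had every pull-down below every input, as had 17.9% of all genes. Under Cre- 1 rose and 2 fell, where 6.01% and 5.83% of all genes were called. Mcam, a cell adhesion molecule that binds laminin alpha 4, rose under Cre- (1.54 ± 0.16 (SE), FDR 7.6e-05) and had a log2 fold change of -0.33 under Cre+, and the difference passed (-1.84 ± 0.30 (SE), FDR 0.0130). Cd44, a hyaluronan receptor, was at 704, 298 and 295 CPM in the pull-downs against 1251, 1174 and 1266 in the inputs (-1.51 ± 0.32 (SE), FDR 0.0133). Sdc1, a syndecan, fell there by 1.72 on the log2 scale (FDR 8.6e-04). Of 25 genes of collagen processing, 14 were tested under Cre+ and 15 under Cre-. In edgeR's quasi-likelihood test 1 was depleted and none enriched under Cre+, with 1 in each direction under Cre-. DESeq2 and the exact test each called 1 enriched (Loxl4) and 2 depleted (P4hb and Crtap) under Cre+. Both also called 1 enriched (Bmp1) and 2 depleted (Serpinh1 and Loxl2) under Cre-. For this list and the proteases, the shares of all genes called are again 4.72% enriched and 2.19% depleted under Cre+, 6.01% and 5.83% under Cre-, and 2.33% and 2.03% for the difference. P4hb, the beta subunit of prolyl 4-hydroxylase, fell under Cre+ (-1.73 ± 0.44 (SE), FDR 0.0717). Under Cre- the procollagen protease Bmp1 rose (1.61 ± 0.48 (SE), FDR 0.0382) and the cross-linking enzyme Loxl2 fell (-1.87 ± 0.44 (SE), FDR 0.0125). The medians of this list were -0.58 and -0.39, below those of all genes under both labels. Of 19 proteases and inhibitors, 13 were tested under each label. Under Cre+ Mmp2 (3.16) and Adam17 (2.30) rose and Ctsl (-1.59) fell, and under Cre- none was called by edgeR or DESeq2, with 2 at an unadjusted p below 0.05 and Ctsl at -0.78. In the difference, Loxl4 (3.22) and Adam17 (2.86) passed.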

How the data were processed

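RNA of pull-downs and inputs was grouped by the genotype and fraction in the labels. The authors aligned reads to mm10 with STAR and counted uniquely mapped fragments per refSeq gene with HTSeq, and the deposited values used here are whole-number counts per library, not normalized. The deposited FPKM, the authors' mean over the 6 libraries of a table, served only as a filter (above 1). CASAVA 1.8.2 is named in the submitters' processing notes. The deposited columns of fold changes and p-values and 18 further per-sample columns (normalized counts and ratios) were not used. The pull-down columns of the Cre+ table were assigned to Cre+ because the labels of that group name the table, although these columns are named, but for punctuation, just as the Cre- pull-down samples are titled. They match no single Cre+ sample, so their numbers only tell libraries apart.

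Pull-down was tested against input in each label, and the difference of both in one fit of 12 libraries, with edgeR 4.0.16 (TMM scaling, robust quasi-likelihood test, R 4.3.3) over all genes past the filter, at a Benjamini-Hochberg FDR below 0.1 and a 2-fold change. Standard errors (SE) were obtained from the size of the log2 fold change and the root of its F value. CPM are counts scaled to 1000000 per library with TMM factors. The scripts were tested on simulated data. Alternatives were DESeq2 1.42.0, edgeR's exact test, a filter of 10 counts in 3 libraries, no filter, scaling by library size, one fit of 12 libraries, a replicate block, and each library left out, with no robust estimate and both first pull-downs left out chosen after seeing the data. Members named by rule were those called (up to 6 per class and direction) and a fixed set of 24 collagen, laminin and integrin genes. Others described, such as Col8a1, Itga4, Itgb2, Lama2, Col6a2, Col6a3 and Col6a5, fell outside that rule. The members and lists were chosen with earlier results of these data known. Figures were drawn with matplotlib 3.10.9. Depth was 8886308 to 18633365 counts per library. Coordinates are from RefSeq and exon lengths from GENCODE M21, both on GRCm38.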

Additional observations from a re-analysis of the deposited data

Results flagged for a closer look

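The pull-down enrichment of 2 members differed between the labels in the edgeR test of the difference itself. For Itga3 the log2 fold change under Cre+ minus that under Cre- was 1.88 (FDR 0.0896), with every pull-down above every input under Cre+ and 1 of 3 pull-downs above an input under Cre-. For Itgb1 it was -1.22 (FDR 0.0968), with every pull-down below every input under Cre+ and overlapping fractions under Cre-. With each library left out in turn, the Itga3 call held in 4 of 12 fits and the Itgb1 call in 4 of 12. With scaling by library size the Itga3 call was lost (FDR 0.129) and the Itgb1 call held (FDR 0.067). The differences ranged from 1.47 to 2.19 and from -1.47 to -1.07 over the alternatives run.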

How the results depend on the processing

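Of the counts under Cre+, enriched matrix genes numbered 4 with the exact test and 4 in one fit of 12 libraries in place of 2, and 0 to 3 with each library left out. No integrin gene was enriched with edgeR's quasi-likelihood test, 1 with DESeq2, 1 with the exact test and 2 in one fit of 12 libraries, and depleted integrin genes were 0 to 1 with a library left out. DESeq2 gave no adjusted p for Col5a3 and Col15a1 under Cre+ or for the Col5a3 difference (NA). Under Cre-, enriched matrix genes numbered 1 without the robust estimate, 1 with DESeq2 and 1 with the exact test (each Col12a1), 1 with no filter (Col9a2), and 0 to 1 with a library left out. Depleted matrix genes numbered 2 with the count filter, 2 with no filter, 0 in one fit of 12 libraries, and 0 to 9 with a library left out. Integrin genes in one fit of 12 libraries numbered 1 enriched and 0 depleted, and with a library left out 3 to 4 and 0 to 2. For the difference, matrix genes numbered 4 with DESeq2, 6 without the first pull-down of both labels, and 0 to 4 with a library left out. Integrin genes numbered 1 with scaling by library size (Itgb1) and 0 to 2 with a library left out.

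Same-numbered Cre- libraries had correlated deviations of r = 0.067, 0.028 and 0.124, and the main test did not take their numbers as pairs, although each input correlated best with its own number. Each input was set aside from the lysate of a pull-down, so that low correlations do not show the libraries to be unpaired. With a replicate block, depleted matrix genes under Cre- numbered 3 (Col1a1, Col4a2 and Col8a1) and Itgav was no longer called (FDR 0.102). No paired analysis was possible under Cre+ because the names of its pull-down columns match no single sample of that label, so that their numbers pair nothing.

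Scaling by library size moved the median log2 fold change of all genes to -0.36 under Cre+ and -0.27 under Cre-. With it 13 of 14 matrix genes had a positive value under Cre+. Calls over all genes were 1103 enriched and 568 depleted under Cre+ with DESeq2, 794 and 485 with the exact test and 1250 and 948 in one fit of 12 libraries, and for the difference 612 and 428 with DESeq2. Under library size scaling Cre- values reversed for Itga9 (-0.059), Itgb1 (-0.12) and Itgb8 (-0.030), and the difference for Itga6 (-0.18). Without the first pull-down of both labels the differences of Itga6 and Itgav reversed to -0.38 and -0.39. With a library left out, 9 log2 fold changes of the named members reversed in at least 1 fit. Over all 14 matrix genes tested under Cre+, 9 were positive without pull-down 1. Under Cre+ their ranges were -0.15 to 1.05 (Col1a1), -0.067 to 1.03 (Lamb1) and -0.49 to 0.036 (Itga7). Under Cre- they were -0.038 to 0.35 (Itgb1), -0.31 to 0.98 (Itgb8) and -0.45 to 0.23 (Lamc1). For the difference they were -0.41 to 0.37 (Itga6), -0.76 to 0.84 (Itgav) and -0.13 to 1.15 (Itgb8). None of these 9 was called. The cause was not tested for any change listed here. Low members such as Itgb4 and Lamb2 were each at 0 in 1 Cre- library, and the part of depth in this was not tested.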
